A study of Mus musculus with 10 samples.

Results

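Genes of retinoid binding and metabolism were followed in the mouse uterus at gestation day (GD) 3.5. They were 9 of the 45706 genes in the deposited count table, taken as the rows whose Ensembl identifier carries the symbol in a GRCm38 annotation. The 9 were chosen by name for their roles, with earlier results of these data known. *Stra6* and *Rbp4* serve uptake and transport of vitamin A, *Rbp7* and *Crabp2* bind retinoids inside cells, *Aldh1a1*, *Aldh1a2* and *Aldh1a3* make retinoic acid, and *Cyp26a1* and *Cyp26b1* break it down. RNA came from part of the uterus of 5 control *Arid1a f/f* adult females and of 5 adult females with epithelial *Arid1a* deletion, the *Ltf iCre/+ Arid1a f/f* genotype (conditional knockout, cKO), all intact and pregnant. Every mouse carried floxed *Arid1a*, which encodes a subunit of the SWI/SNF chromatin remodeling complex, on a mixed strain background, and only the second group had Cre. The recombinase is made from the lactoferrin (*Ltf*) locus of those mice, which targets the deletion to epithelium of the endometrium. The authors cite reports that this Cre can also be made in neutrophils and other myeloid cells. They could not exclude a part of deletion in such cells. The RNA held every cell type of the uterus, so a change could lie in any of them. Numbers 1 to 5 are the replicate numbers of the labels within each genotype, which state no pairing. A numbered uterus not called a control is a cKO uterus.

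Vitamin A circulates as retinol bound to RBP4, enters cells through the membrane receptor STRA6, and is held in the cytoplasm by cellular retinol-binding proteins. Alcohol and retinol dehydrogenases oxidize retinol to retinaldehyde, the ALDH1A enzymes oxidize that to retinoic acid, CRABP2 carries retinoic acid to the nuclear receptors (RAR, partnered with RXR), and CYP26 enzymes inactivate it. In the uterus these steps are divided between epithelium and stroma and are known to respond to ovarian steroids around implantation.

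The libraries held between 59296537 and 72702411 counts, and expression is given as CPM, the counts of a gene after edgeR's TMM method has brought the libraries to the same size. Genotypes were compared by edgeR's quasi-likelihood test over the 25146 genes that averaged 1 count or more per uterus, and a gene was called at a Benjamini-Hochberg adjusted p under 0.05. *Arid1a* was at 213 ± 22.9 CPM in controls and 185 ± 15.9 CPM in cKO uteri (SD, n = 5 each; log2 fold change -0.20, adjusted p = 0.201), with 4 of 5 below every control. *Ltf*, whose locus carries Cre, was higher (log2 fold change 7.23, adjusted p = 0.00920). Among cKO uteri, numbers 1 and 5 stood apart. The summed CPM of 10 estrogen target genes was 2825 and 7285 in these uteri, 526 to 985 in the other 3 and 456 to 700 in controls. In uterus 5 most of this sum was *Ltf* (2831 CPM), *C3* (1977) and *Lcn2* (1659). *Muc1*, *Greb1*, *Clca1* and *Sprr2f* were also above every control there, whereas *Padi2*, *Fgf18* and *Mki67* were within the control range. The sum of 12 progesterone target genes was 986 and 1061 in uteri 1 and 5, 1627 to 1853 in the other 3 and 2144 to 2646 in controls. Uterus 5 also had 782 CPM over 6 neutrophil markers, against at most 14.0 in the other 4 and 15.0 in controls. The part of neutrophils in its estrogen target sum was not tested. Results are therefore also given without uteri 1 and 5.

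All 9 genes passed the filter on low counts. Of these, 2 were called higher in cKO uteri (*Aldh1a1* and *Crabp2*) and 1 was called lower (*Rbp7*). Over all tested genes 9.7% were called, 5.19% higher and 4.51% lower. The values of the same 3 genes did not overlap between genotypes, as was true of 10.7% of all tested genes. Since the 9 genes were chosen with earlier results of these data known, these shares are background and no test of the set. The median log2 fold change of the 9 genes was 0.25, and that of all tested genes was 0.03. Without uteri 1 and 5, a pair set apart by its expression in these same data, *Cyp26a1* was called higher as well, and the other 3 calls stood. Uteri 1 and 5 held the lowest *Cyp26a1* values of the cKO group, so that added call is no separate evidence of a rise.

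**Figure D1:**
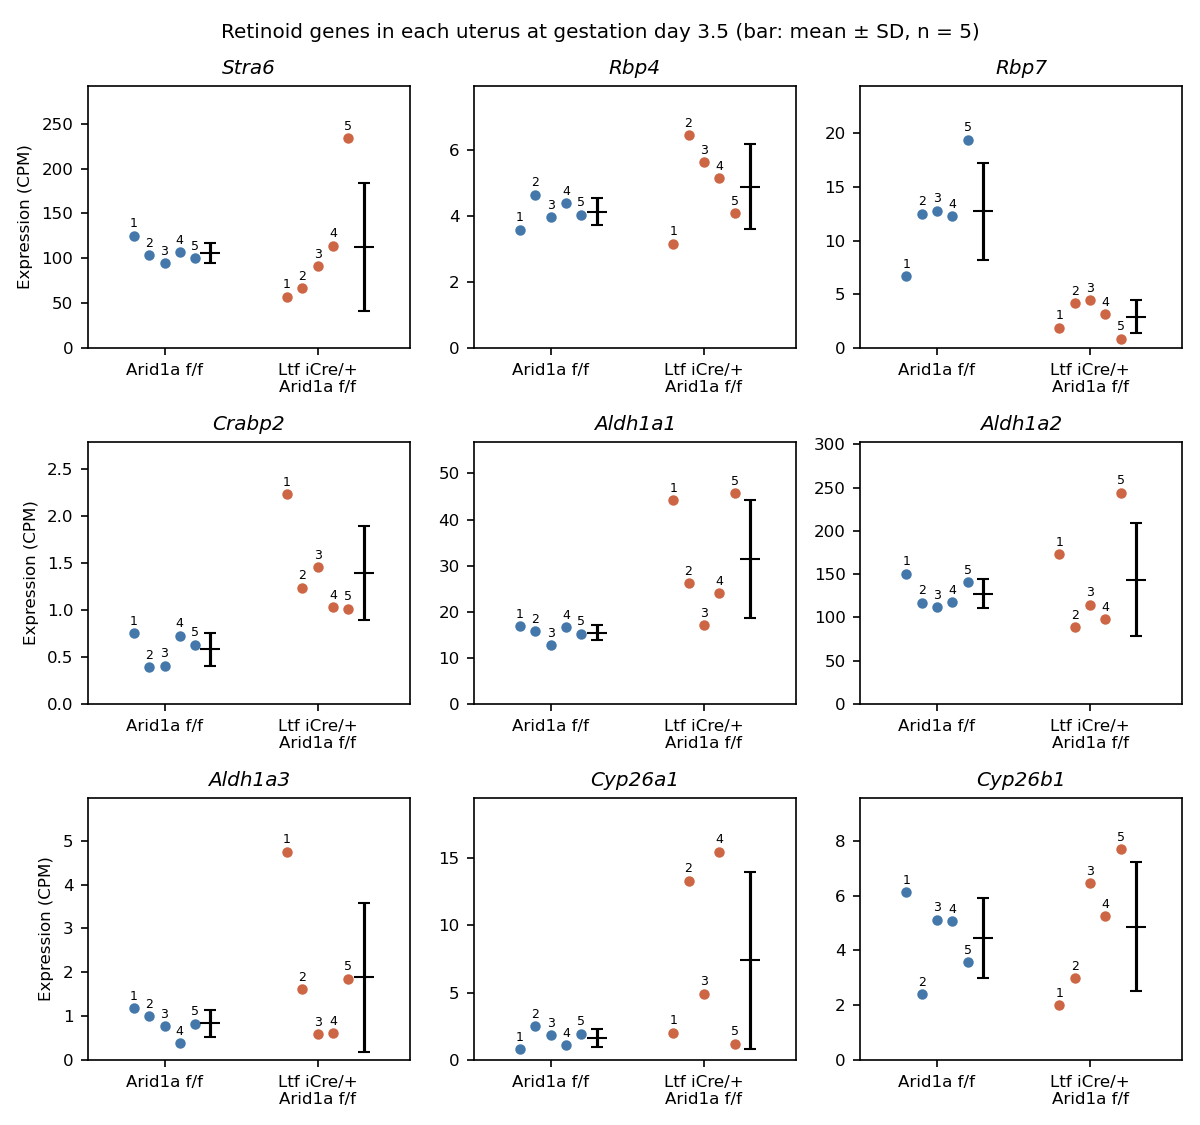
Expression in CPM (vertical axes, each from 0) of the 9 retinoid genes in every uterus, by genotype. Numbered points are uteri and the black bar is the mean ± SD of 5. *Rbp7* points of the cKO group all lie below the controls, *Aldh1a1* and *Crabp2* points all lie above them, and the other 6 genes overlap.

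Levels can be compared between genes only per length of exon, here that of all exons merged. This length exceeds the longest transcript by unlike amounts. It was 4937 against 2358 bases for *Aldh1a1*, 5829 against 3077 for *Stra6*, 1343 against 1161 for *Rbp4* and 718 against 619 for *Rbp7*. How close the levels of these genes lie therefore depends on the length used. In controls *Aldh1a2* had the highest level per kb of exon (56.4 ± 7.56 CPM per kb, SD, n = 5). *Stra6* (18.2 ± 1.98) and *Rbp7* (17.7 ± 6.28) came next, and their ranges overlapped. *Aldh1a1* (3.13 ± 0.335) and *Rbp4* (3.07 ± 0.302) followed, again with overlapping ranges. Lower still were *Cyp26b1* (0.833 ± 0.274), *Cyp26a1* (0.823 ± 0.347) and *Crabp2* (0.440 ± 0.131), whose neighbors in this order overlapped. *Aldh1a3* had the lowest level, 0.181 ± 0.0652 CPM per kb, with no overlap with *Crabp2*. Every one of these genes was above the floor of 3 counts in each library, the smallest being 26 counts for *Crabp2* and 27 for *Aldh1a3*. In cKO uteri *Rbp7* stood at 4.07 ± 2.12 CPM per kb, below the mean of *Aldh1a1* (6.37 ± 2.59), which it exceeded in controls.

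**Figure D2:**
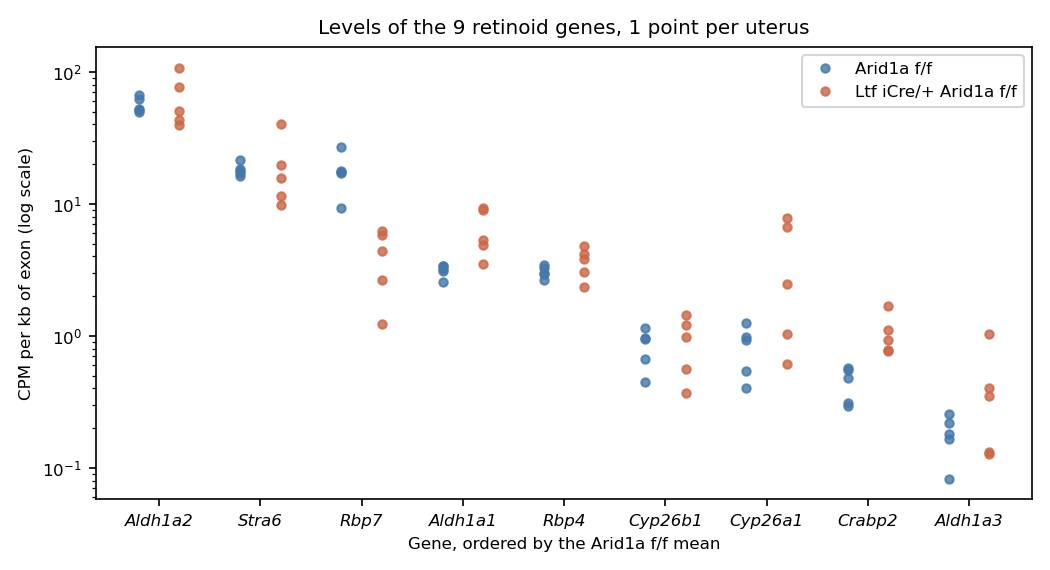
CPM per kb of exon on a log axis for each gene, 1 point per uterus, with genes in the order of their control means from *Aldh1a2* (56.4) to *Aldh1a3* (0.181). *Rbp7* drops from the level of *Stra6* to that of *Aldh1a1*, and the *Cyp26a1* points of cKO uteri spread over more than the width of the controls.

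The uptake and transport genes among the 9, *Stra6* and *Rbp4*, did not pass the test. *Stra6* (ENSMUSG00000032327, GRCm38 chr9:58063788-58153996) was at 125, 103, 94.8, 107 and 100 CPM in controls 1 to 5. It was at 57.1, 66.5, 91.0, 114 and 234 CPM in cKO uteri 1 to 5. The controls were close together, whereas 3 of the cKO uteri lay below every control and 1 lay above. The means of 106 ± 11.5 and 113 ± 71.3 CPM hid this spread, and the log2 fold change of 0.09 (SE 0.32, 95% interval -0.62 to 0.79, adjusted p = 0.903) had no stable sign: it was -0.37 without uterus 5 and -0.23 without uteri 1 and 5. The highest level was thus that of uterus 5 and the lowest that of uterus 1, the pair with the highest estrogen target sums. *Stra6* spans *Gm16131* on its own strand and *Ccdc33* on the other, and *Aldh1a1* and *Aldh1a2* span noncoding or predicted genes on the other strand, but none of the 9 genes shares exon bases with them.

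*Rbp4* (ENSMUSG00000024990, chr19:38116629-38125281), the carrier of retinol in blood, was low in the uterus. Controls held 3.58, 4.64, 3.96, 4.37 and 4.03 CPM, and cKO uteri 3.15, 6.44, 5.62, 5.13 and 4.08 CPM. Uteri 2, 3 and 4 were above every control, uterus 1 was below, and uterus 5 was within their range. The log2 fold change was 0.25 (SE 0.20, 95% interval -0.19 to 0.68, adjusted p = 0.489), and 0.48 without uteri 1 and 5 (adjusted p = 0.0993).

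*Rbp7* (ENSMUSG00000028996, chr4:149449687-149454978), a cellular retinol-binding protein known from endothelium and adipose tissue, fell in every cKO uterus. Controls 1 to 5 had 6.69, 12.5, 12.8, 12.3 and 19.4 CPM. cKO uteri 1 to 5 had 1.90, 4.17, 4.48, 3.18 and 0.883 CPM. The highest of the second group was below the lowest control, and uteri 1 and 5 were the lowest. The mean dropped from 12.7 ± 4.51 to 2.92 ± 1.52 CPM (SD, n = 5 each), which is 4.36-fold lower, with a log2 fold change of -2.12 (SE 0.41, 95% interval -3.03 to -1.22, adjusted p = 0.0105). The gene was called in all 18 alternative analyses, with log2 fold changes from -2.33 to -1.69. The value nearest to 0 was that without uteri 1 and 5, so the fall was present in the other 3 uteri.

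Markers of endothelium moved with *Rbp7*. Of 7 such genes 6 were called lower and the seventh, *Vwf*, had a log2 fold change of -0.63 (adjusted p = 0.119), and the median over the list was -0.89. Their summed level was 770 to 1087 CPM in controls and 408 to 553 CPM in cKO uteri. In whole tissue RNA, fewer endothelial cells and less of these RNAs per cell cannot be told apart. The mean of the sum was 1.96-fold lower, a smaller ratio than that of *Rbp7*. As a percent of this sum, *Rbp7* was 0.661, 1.29, 1.18, 1.43 and 2.52 in controls. It was 0.383, 0.754, 0.893, 0.718 and 0.216 in cKO uteri. These percents overlapped between genotypes, since control 1 lay below uteri 2, 3 and 4, while uteri 1 and 5 lay below every control. The mean log2 difference of this percent was -1.30, and it was not tested. The defining adipocyte markers were near 0: in controls the means of *Adipoq* and *Plin1* were 0.00284 and 0.0143 CPM, and in cKO uteri 0.259 and 0.0954 CPM. *Adipoq* was at 0.608 and 0.670 CPM in uteri 2 and 3 and at most 0.0157 CPM in the other 8 libraries, and these uteri had the highest *Rbp7* of the cKO group. Of the 8 adipocyte markers tested none was called, and 6 had positive log2 fold changes (list median 2.73, mostly from genes near 0 in controls). The summed level of the list was 32.3 to 38.5 CPM in controls and 20.0 to 33.0 CPM in cKO uteri, nearly all of it *Lipe* and *Car3* (control means 26.7 and 8.70 CPM). The part of adipocytes in the *Rbp7* values was not tested.

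*Crabp2* (ENSMUSG00000004885, chr3:87948666-87953376), which delivers retinoic acid to its receptors, rose from a low level. Controls had 0.755, 0.390, 0.407, 0.724 and 0.632 CPM, and cKO uteri had 2.23, 1.23, 1.46, 1.03 and 1.01 CPM. The groups did not overlap, and uterus 1 was the highest. The means were 0.582 ± 0.173 and 1.39 ± 0.500 CPM (2.39-fold, log2 fold change 1.26, SE 0.30, 95% interval 0.59 to 1.91, adjusted p = 0.0254). These values rest on 26 to 142 counts per library. The call was lost without control 2, 3 or 5 (adjusted p = 0.0668, 0.0681 and 0.0518), each time with a log2 fold change of at least 1.13, and stood without uteri 1 and 5 (log2 fold change 1.09, adjusted p = 0.0413).

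*Aldh1a1*, *Aldh1a2* and *Aldh1a3* encode the retinaldehyde dehydrogenases, and the 3 genes differed in level and in change. *Aldh1a1* (ENSMUSG00000053279, chr19:20492715-20643465) was at 16.8, 15.9, 12.7, 16.7 and 15.2 CPM in controls. In cKO uteri 1 to 5 it was at 44.3, 26.1, 17.2, 24.0 and 45.7 CPM. Uterus 3 was just above the highest control, and uteri 1 and 5 were far above it. The mean rose from 15.5 ± 1.66 to 31.4 ± 12.8 CPM (2.03-fold, log2 fold change 1.02, SE 0.24, 95% interval 0.49 to 1.56, adjusted p = 0.0247). Without uteri 1 and 5 the log2 fold change was 0.54 (adjusted p = 0.0433). Of the 10 fits that left out 1 uterus, 5 kept the call. It was lost without control 2, 3, 4 or 5 (adjusted p = 0.0601, 0.0672, 0.0521 and 0.0554) and without cKO uterus 1 (0.05003, just over the threshold), where the log2 fold change was between 0.86 and 1.05.

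Most general epithelial markers, but not markers of glands, moved up with both *Crabp2* and *Aldh1a1*. Of 12 genes that luminal and glandular epithelium share, 8 were called higher, such as *Cdh1* (log2 fold change 0.82, adjusted p = 0.0106) and *Krt8* (0.87, adjusted p = 0.0220), with a list median of 0.84. *Krt18*, *Cldn4* and *Esrp1* had positive log2 fold changes without a call, and that of *Cldn3* was negative (-0.30, adjusted p = 0.558). *Cldn3* was at 78.7 and 59.2 CPM in uteri 1 and 5, against 121 to 186 CPM in controls. Their sum was 972 to 1278 CPM in controls and 1526 to 3102 CPM in cKO uteri, highest in uterus 1. *Aldh1a1* made up 1.47, 1.29, 1.31, 1.30 and 1.39 percent of this sum in controls. It made up 1.43, 1.48, 1.12, 1.25 and 2.33 percent in cKO uteri. Uterus 5 was far above every control and uterus 2 just above. Uteri 3 and 4 were below every control, and uterus 1 was within their range. The mean log2 difference of the percent was 0.12 for *Aldh1a1* and 0.44 for *Crabp2*, for which 3 of 5 cKO uteri were above every control. All 8 genes of a separate gland list had negative log2 fold changes, with a median of -1.93. Only *Foxa2*, a transcription factor of uterine glands, was called lower (-1.13, adjusted p = 0.00570). *Prss28* and *Prss29* were near the floor, with 43 counts each in control 1 and at most 7 in any other library. *Lif* was above every control in uterus 5 (17.4 CPM). The summed level of the gland list was 97.8 to 148 CPM in controls and 34.2 to 55.9 CPM in cKO uteri, 2.49-fold lower in the mean. The part of the epithelial and gland markers in both rises was not tested beyond these ratios.

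**Figure D3:**
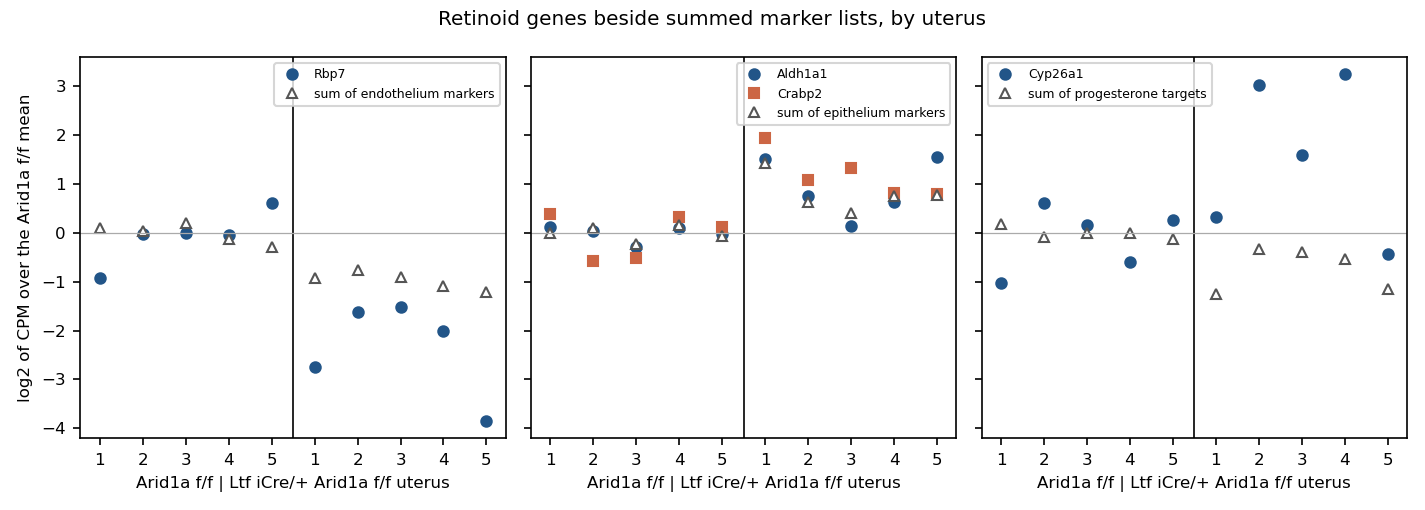
Log2 of CPM over the control mean in each uterus, controls left and cKO right of the line, for *Rbp7* with the sum of endothelium markers, *Aldh1a1* and *Crabp2* with the sum of epithelium markers, and *Cyp26a1* with the sum of progesterone targets. *Rbp7* lies below its marker sum in all 5 cKO uteri, *Aldh1a1* stays close to the epithelial sum except in uterus 5, and *Cyp26a1* is highest in uteri 2 and 4.

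*Aldh1a2* (ENSMUSG00000013584, chr9:71215789-71296243), the most abundant of the 3, was at 151, 117, 112, 118 and 141 CPM in controls. It was at 173, 88.9, 115, 98.4 and 244 CPM in cKO uteri. Uteri 1 and 5 were above every control, uteri 2 and 4 below, and uterus 3 within their range. The log2 fold change of 0.17 (SE 0.25, 95% interval -0.37 to 0.72, adjusted p = 0.723) turned to -0.10 without uterus 5 and to -0.34 without uteri 1 and 5 (adjusted p = 0.106). *Aldh1a3* (ENSMUSG00000015134, chr7:66390890-66427517) was at 0.383 to 1.19 CPM in controls and at 4.75, 1.62, 0.589, 0.610 and 1.85 CPM in cKO uteri. Uteri 1, 2 and 5 were above every control and the other pair within their range (log2 fold change 1.17, SE 0.55, 95% interval -0.03 to 2.37, adjusted p = 0.203). Without uteri 1 and 5 it was 0.17 (adjusted p = 0.859).

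Within the summed level of the 3 genes per kb of exon, *Aldh1a2* held 94.4 ± 0.596 percent in controls and 90.1 ± 2.42 percent in cKO uteri. *Aldh1a1* held 5.29 ± 0.626 percent (4.70 to 6.09) in controls and 9.29 ± 2.13 percent (6.41 to 11.8) in cKO uteri, a difference of 4.01 percentage points with no overlap. The share of *Aldh1a3* was 0.301 and 0.564 percent, with overlapping values. Counted per length of the longest transcript in place of all exons, the difference of *Aldh1a1* was 7.12 points. These shares were not tested.

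*Cyp26a1* (ENSMUSG00000024987, chr19:37697798-37701536), a retinoic acid hydroxylase whose own transcription retinoic acid induces, varied most among the cKO uteri. Controls 1 to 5 had 0.797, 2.50, 1.83, 1.08 and 1.95 CPM. cKO uteri 1 to 5 had 2.04, 13.3, 4.94, 15.5 and 1.22 CPM. Uteri 2, 3 and 4 were above every control, and uteri 1 and 5 were within the control range. The highest of the 5 was 12.7-fold the lowest, against 3.13-fold among controls. The means of 1.63 ± 0.688 and 7.40 ± 6.58 CPM gave a log2 fold change of 2.18 (SE 0.65, 95% interval 0.76 to 3.60) that did not pass the test (adjusted p = 0.0567). Of 18 alternatives 4 called it and 14 did not. It passed without uterus 1 (2.42, adjusted p = 0.0399), without uterus 5 (2.45, adjusted p = 0.0189) and without both (2.78, adjusted p = 0.00225). DESeq2, the tool the authors used, also called it in its Wald test on all 10 uteri (2.18, adjusted p = 0.00275). Without either of the uteri with the highest values it moved away from the threshold, to 1.86 without uterus 2 (adjusted p = 0.103) and 1.72 without uterus 4 (adjusted p = 0.119), and without any 1 control the adjusted p was 0.0897 to 0.125.

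Uteri 1 and 5, where *Cyp26a1* was at control level, were those with the lowest sums of progesterone targets (986 and 1061 CPM). In uteri 2, 3 and 4, where it was high, those sums were 1853, 1788 and 1627 CPM, still below every control. In controls, with sums of 2144 to 2646 CPM, *Cyp26a1* was at most 2.50 CPM. Of the 12 progesterone targets 10 had negative log2 fold changes, and 4 were called lower (*Areg*, *Calca*, *Ptch1* and *Fkbp5*). The targets did not move alike in uteri 2, 3 and 4. *Lrp2* was at 234, 259 and 133 CPM there (control mean 640 CPM), whereas *Ihh* was at 52.4, 48.2 and 58.5 CPM, above every control. Whether these genes bear on *Cyp26a1* was not tested.

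*Cyp26b1* (ENSMUSG00000063415, chr6:84571414-84593908), the second hydroxylase, was at 6.13, 2.41, 5.12, 5.07 and 3.56 CPM in controls. It was at 1.99, 2.99, 6.44, 5.24 and 7.68 CPM in cKO uteri. The groups overlapped widely (4.46 ± 1.47 and 4.87 ± 2.36 CPM, log2 fold change 0.13, SE 0.37, 95% interval -0.67 to 0.93, adjusted p = 0.870). The sign changed without control 2 (-0.03) and without cKO uterus 5 (-0.10). *Cyp26c1*, the third gene of this family and no member here, held at most 0.189 CPM in any uterus.

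**Figure D4:**
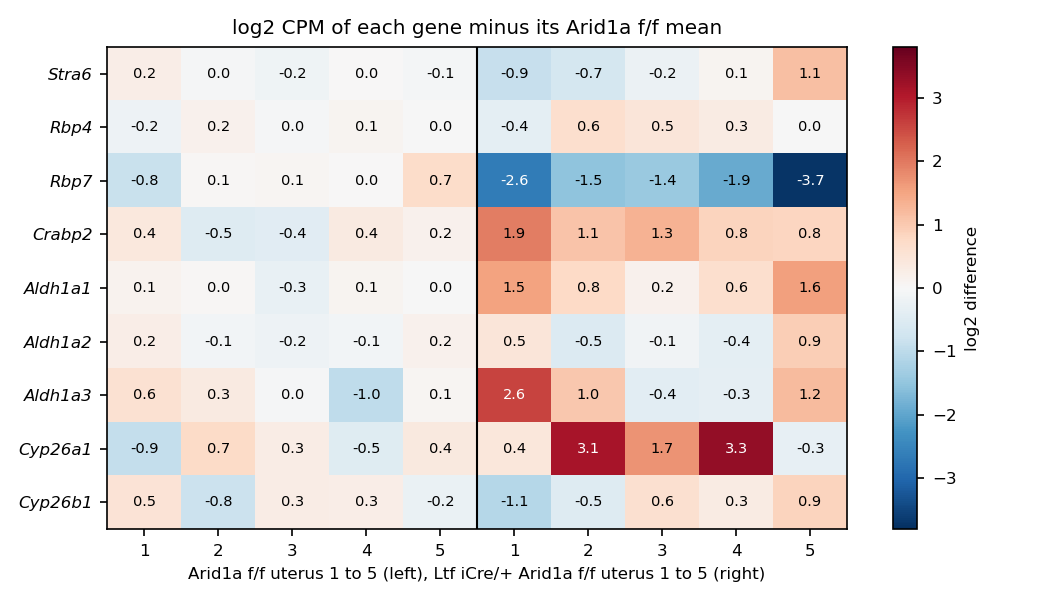
Log2 CPM of each retinoid gene (rows) minus its control mean in each uterus (columns, controls left of the line), in color and printed in the cells. Uteri 1 and 5 of the cKO group combine the lowest *Rbp7* with the highest *Aldh1a1* and *Aldh1a2*, whereas high *Cyp26a1* stands in uteri 2, 3 and 4.

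The promoter of *Cyp26a1* carries the classical element by which retinoic acid acts on a gene, a direct repeat of a half-site with a 5-base spacer (DR5) bound by RAR and RXR. The 250 bases before the RefSeq start sites in GRCm38.p6 were searched on both strands for such repeats of the half-site AGGTCA or its variants AGTTCA or else GGGTCA or else GGTTCA with spacers of 5, 2 or 1 bases and for the estrogen response element (GGTCA followed after any 3 bases by TGACC). Windows were given for 7 of the 9 genes (not for *Aldh1a3* and *Crabp2*) and 41 of the 54 other retinoid genes listed for the pathway. A DR5 was found in 29 of 32851 windows (0.0883%), a DR2 in 0.174%, a DR1 in 0.164% and the estrogen response element in 0.0639%. Among the 7 member genes with a window the only match was the DR5 of *Cyp26a1*. Among the 41 others with a window the only DR5 was that of *Rarb*, a receptor gene known as a retinoic acid target. The *Cyp26a1* window (plus strand, chr19:37697558-37697807), the *Rarb* element (minus strand, chr14:16575513-16575529) and the window of *Rbp7* (minus strand, chr4:149454969-149455218), the member with the strongest call and no match, are given with DR5 half-sites in capitals.
Cyp26a1: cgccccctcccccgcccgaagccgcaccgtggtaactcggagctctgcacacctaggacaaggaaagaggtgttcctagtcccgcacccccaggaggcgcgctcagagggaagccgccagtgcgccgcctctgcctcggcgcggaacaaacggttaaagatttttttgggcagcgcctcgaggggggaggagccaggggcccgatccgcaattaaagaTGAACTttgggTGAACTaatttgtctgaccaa
Rarb: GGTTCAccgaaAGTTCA
Rbp7: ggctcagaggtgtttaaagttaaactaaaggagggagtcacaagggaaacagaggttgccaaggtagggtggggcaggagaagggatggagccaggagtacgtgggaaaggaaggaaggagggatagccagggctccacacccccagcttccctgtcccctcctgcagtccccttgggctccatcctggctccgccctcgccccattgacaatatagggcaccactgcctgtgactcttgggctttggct
The element of *Cyp26a1* lies 32 to 16 bases before the start and reads in the reverse direction, and that of *Rarb* lies 53 to 37 bases before its start. The 2 genes in which this element was found had different values. *Rarb* was at 6.49, 5.76, 8.30, 7.77 and 5.66 CPM in controls and at 3.70, 6.47, 7.72, 6.01 and 8.29 CPM in cKO uteri. *Rarb* was thus not high in uteri 2 and 4, where *Cyp26a1* was highest (*Rarb* log2 fold change -0.08, SE 0.22, 95% interval -0.55 to 0.40, adjusted p = 0.867). A match of letters is no measurement of binding.

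The receptors of retinoic acid did not pass the test. The log2 fold change was -0.13 for *Rara* (95% interval -0.39 to 0.13), 0.24 for *Rarg* (0.00 to 0.48, adjusted p = 0.195), -0.03 for *Rxra* (-0.24 to 0.18) and 0.05 for *Rxrb* (-0.11 to 0.21). Their intervals, and that of *Rarb*, leave little room for a change of the size seen for *Rbp7*. *Rxrg*, the sixth receptor, was at or below 0.517 CPM in every uterus (log2 fold change -1.43, adjusted p = 0.114).

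Of the 54 other retinoid genes, 51 passed the filter on low counts. None was called higher and 6 were called lower, against 5.19% and 4.51% of all tested genes, and the median log2 fold change was -0.06. The 3 that were left out, *Sdr16c5*, *Hoxb1* and *Cdx1*, had at most 3 counts in any library. Of the 6, *Rdh1*, *Rdh10*, *Adh5* and *Adh7* encode dehydrogenases that act on alcohols, with RDH10 the main enzyme that makes retinaldehyde in embryos. *Rdh10* fell from 151 to 109 CPM (log2 fold change -0.46, adjusted p = 0.0489) and lost its call in 11 of 18 alternatives, among them each fit that left out 1 control. *Rdh1* was 2.62-fold lower (15.1 to 5.78 CPM, log2 fold change -1.39, adjusted p = 0.0268), with 1.73 CPM in uterus 1 as its lowest value. It lost its call without control 2, 3 or 4 or cKO uterus 2 (adjusted p = 0.0556, 0.0633, 0.0648 and 0.0505).

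*Adh5*, a widely expressed class III alcohol dehydrogenase that also handles formaldehyde, fell from 178 to 115 CPM (log2 fold change -0.62, adjusted p = 0.00523) without overlap, and *Adh7*, an alcohol dehydrogenase of epithelia that is active on retinol, fell from 5.68 to 0.921 CPM (-2.63, adjusted p = 0.00898). *Adh7* values overlapped narrowly, with 1.766 CPM in control 5 and 1.774 CPM in uterus 2. *Scarb1*, a lipoprotein and carotenoid receptor, fell from 80.4 ± 11.8 to 53.7 ± 4.94 CPM (-0.58, adjusted p = 0.00895). *Aox1*, an aldehyde oxidase able to oxidize retinaldehyde, fell from 30.5 to 17.5 CPM (-0.80, adjusted p = 0.0356). *Adh5*, *Adh7* and *Scarb1* were called in all 18 alternatives, and *Aox1* in 9, being lost without any 1 of the 5 controls (adjusted p of at most 0.0873). Closest to the threshold were *Retsat* (-0.34, adjusted p = 0.0522), *Dhrs9* (2.84, adjusted p = 0.0528) and *Ttr* (-2.68, adjusted p = 0.0600), which are named because of these values. *Dhrs9*, a retinol dehydrogenase of epithelia, was at 53.0 and 16.2 CPM in uteri 1 and 5 and at 3.95 to 4.10 CPM in the other 3, and its log2 fold change was 0.83 without that pair (adjusted p = 0.335).

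**Figure D5:**
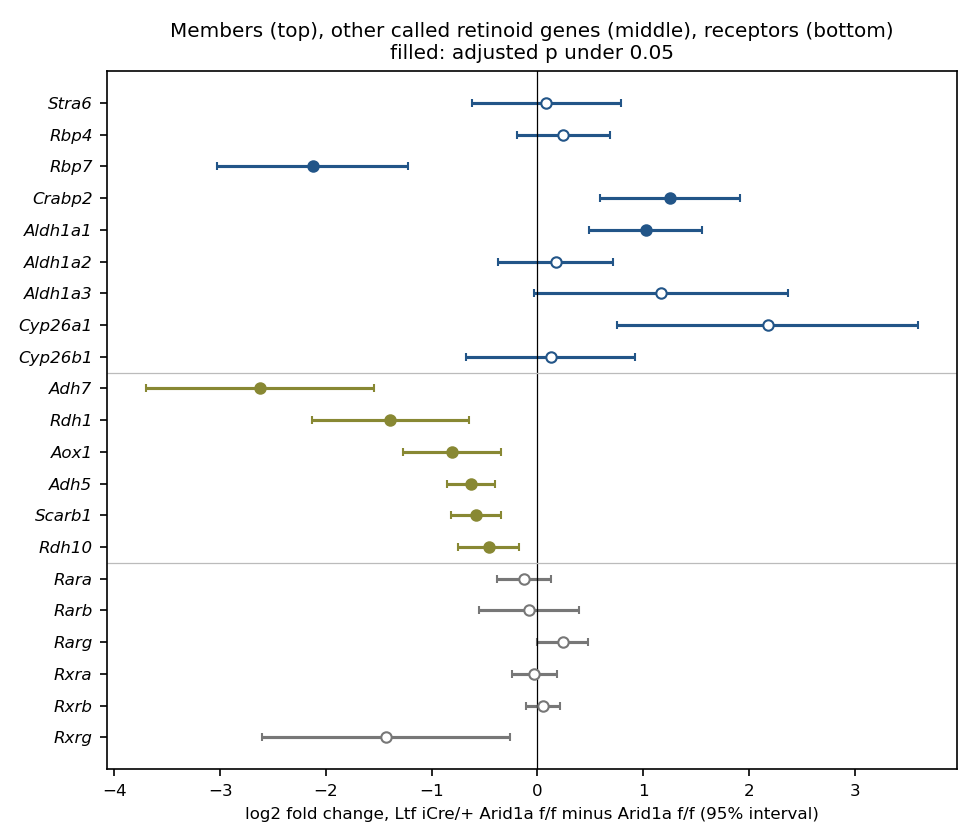
Log2 fold change between genotypes (horizontal axis, positive values higher in cKO uteri) with its 95% interval for the 9 retinoid genes, the 6 other called retinoid genes and the 6 receptors, with filled points for an adjusted p under 0.05. *Rbp7* (-2.12) and *Adh7* (-2.63) lie farthest below 0, and the interval of *Cyp26a1* is wide (0.76 to 3.60).

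The called members could be set beside other genes by the root mean square difference of log2 CPM, each gene centred on its control mean, over the 10 uteri and among 14550 genes with a mean of at least 100 counts. Nearest to *Rbp7* were *Gm11816* (0.374), *Degs2* (0.416) and *Ccn3* (0.442), and their log2 fold changes were -1.97, -2.29 and -2.38. Nearest to *Crabp2* were *Gm13648* (0.142), *Six4* (0.251) and *Mlxipl* (0.253), with log2 fold changes of 1.13 to 1.15. Nearest to *Aldh1a1* were *Hs6st1* (0.126), *Mapk13* (0.152) and *Cxadr* (0.156), with log2 fold changes of 1.05, 1.10 and 0.96. The distances were larger for *Rbp7* than for *Crabp2* and *Aldh1a1*. They are not scaled to the size of a change, which was also largest for *Rbp7* among the called members. They therefore give no ranking of these members.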

How the data were processed

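The authors trimmed 50 bp, paired end reads with cutadapt 1.18 and Trim Galore 0.6.4, checked them with FastQC 0.11.9, aligned them to GRCm38 with STAR 2.7.3a and let STAR count reads on genes (GeneCounts). The deposited values are raw counts of 45706 genes in 10 uteri, with no normalization or filter. Which annotation release and which strand setting the counting used is not given in the sources used here, so reads of overlapping genes on opposite strands may not be separated. Symbols, positions and exon lengths came from a GENCODE annotation of GRCm38, which held 45143 of the identifiers. No row lacked a gene.

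Genes averaging 1 count or more per uterus entered edgeR 4.0.16 in R 4.3.3. Genotype was the only factor of the quasi-likelihood test, library sizes were scaled by TMM, and calls were made at a Benjamini-Hochberg adjusted p under 0.05. The authors' own test was DESeq2, with false discovery rates from independent hypothesis weighting. Here DESeq2 1.42.0, with Benjamini-Hochberg adjustment, was the alternative test. The 95% intervals come from the edgeR fit and are not adjusted for the number of genes. No 2 uteri of a genotype agreed within sampling noise (chi-square per gene of at least 33.3). All 9 members are named in the text, with the called genes and receptors of the other retinoid list, marker genes where a result turns on them, and the 3 genes most like each called member. The members and lists were chosen with earlier results of these data known, and the percents of marker sums were added after seeing the data. Alternatives covered normalization, test, filter, replicate number as a block and omission of uteri. Promoter windows came from RefSeq (GRCm38.p6). Figures used Python 3.11.15 and matplotlib 3.10.9.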

Additional observations from a re-analysis of the deposited data

How the results depend on the processing

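Over 18 alternatives for each of the 9 genes (162 in all), 143 kept direction and side of the threshold, 8 lost a call, 4 gained one and 7 changed sign. The sign changes were those of *Cyp26b1* without control 2 (-0.03) and without uterus 5 (-0.10), *Aldh1a2* without uterus 5 (-0.10) and without uteri 1 and 5 (-0.34), and *Stra6* without uterus 5 (-0.37), without uteri 1 and 5 (-0.23) and with the replicate number as a block (-0.11), none of them called. With 1 uterus left out, *Cyp26b1* ranged from -0.10 to 0.32, *Aldh1a2* from -0.10 to 0.30 and *Stra6* from -0.37 to 0.25. Among receptors, the omission of 1 uterus gave *Rarb* values from -0.18 to 0.065 (above 0 without cKO uterus 1) and *Rxra* values from -0.083 to 0.027 (above 0 without control 1 and without cKO uterus 3). With 1 uterus left out, the members called higher ranged from 0 to 3 (0 without control 2, 3 or 5) and called lower stayed at 1, the other retinoid genes called higher ranged from 0 to 1 and called lower from 3 to 6, and all genes called higher from 594 to 1296 and lower from 610 to 1085, against 1305 and 1133 with all uteri. The added calls higher were *Dhrs9* or *Fabp5*. DESeq2 called 2 of the other retinoid genes higher and 10 lower, and 2108 and 1954 of all genes. The other retinoid genes called higher numbered 1 with edgeR's expression filter and 1 without uteri 1 and 5. Per longest transcript, the Aldh1a share difference was 7.12 points for *Aldh1a1* and -7.42 for *Aldh1a2* (4.01 and -4.27 per exon length). With 1 uterus left out these differences ranged from 3.39 to 4.73 points, from -5.08 to -3.60 points and, for *Aldh1a3*, from 0.107 to 0.346 points. The cause of these changes was not tested. Same-numbered uteri showed little shared deviation (correlations of deviations -0.053 to 0.128, and 2 of 5 controls correlated best with their own number). Such values cannot exclude a pairing. The authors compared littermates where they could, and the labels do not say which uteri these were. With the replicate number as a block all genes called higher numbered 845 and lower 859, the members called were again 2 higher and 1 lower, and *Cyp26a1* had a log2 fold change of 1.70 (adjusted p = 0.137).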
